A study of Mus musculus with 26 samples.

Results

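B cell and immunoglobulin genes were followed across lean, obese and formerly obese mice as 8 members of the 39017 genes counted: Cd22, Cd79a, Cd79b, Ms4a1, Pax5, Ighm, Igkc and Mzb1. Each member was taken by its exact symbol and was found once in the count table of the adipocytes and once in that of the stromal vascular cells (SVC). The mice, wild type males of the C57BL/6J strain, were 9 to 10 weeks of age when feeding began and ate a 10% fat diet (LFD, lean) or a 60% fat diet (HFD, obese) for 12 weeks, or the HFD for 9 weeks and then the LFD for 3 weeks (SW, formerly obese). Epididymal fat was digested with collagenase into floating adipocytes and pelleted SVC, the latter after lysis of red blood cells. RNA of each fraction was sequenced, with 3 LFD, 3 HFD and 3 SW libraries of adipocytes and 1 LFD, 2 HFD and 3 SW libraries of SVC. The number in each library's name is that of its column and is not tied to a mouse.

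B cells are lymphocytes that carry an antibody on their surface as a receptor. The receptor is a membrane immunoglobulin held by the signalling chains Cd79a and Cd79b. In a plasma cell, the end stage of the lineage, the same immunoglobulin genes are transcribed at very high levels for secretion, while Pax5 and the surface proteins of the B cell are lost. Epididymal fat holds B cells in its stroma and in small lymphoid clusters on its surface, among them innate-like B-1 cells that make IgM. In bulk RNA of a fraction, fewer B cells and less RNA per B cell cannot be told apart.

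The libraries held 6142895 to 23725647 counts for adipocytes and 5781902 to 22195810 for SVC, and 3 counts, the most that a count of 0 allows, were 0.126 to 0.519 CPM (counts per 1000000 counts). The fractions matched their labels, since 7 of 7 adipocyte markers were lower in SVC than in adipocytes in both HFD and SW mice. Of all genes tested, 12.9% were lower in HFD and 32.8% in SW mice. Both HFD libraries of SVC stood apart, each in another measure. HFD library 411 had 33.5% of its counts in mitochondrial genes, against 6.34% in HFD library 212 and 4.36% to 9.54% in LFD and SW libraries. HFD library 212 had 0.287% in hemoglobin genes, against 3.09% in HFD library 411 and 2.76% to 5.15% in LFD and SW libraries. Tests of the members that used library 411 are also given without it, where HFD library 212 alone stands for HFD SVC and is assumed to vary like the other groups.

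B cell transcripts were scarce in the adipocyte fraction, apart from those of the immunoglobulin chains. Pax5, the transcription factor that fixes B cell identity, had at most 12 counts in any adipocyte library, and Ms4a1, the surface protein CD20, had at most 57. Ighm, the constant region of the IgM heavy chain, had 2264 counts or more in every adipocyte library. The plot of CPM by library places SVC above adipocytes for most members and shows Cd22 as the member that separated the diets in adipocytes.

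**Figure D1:**
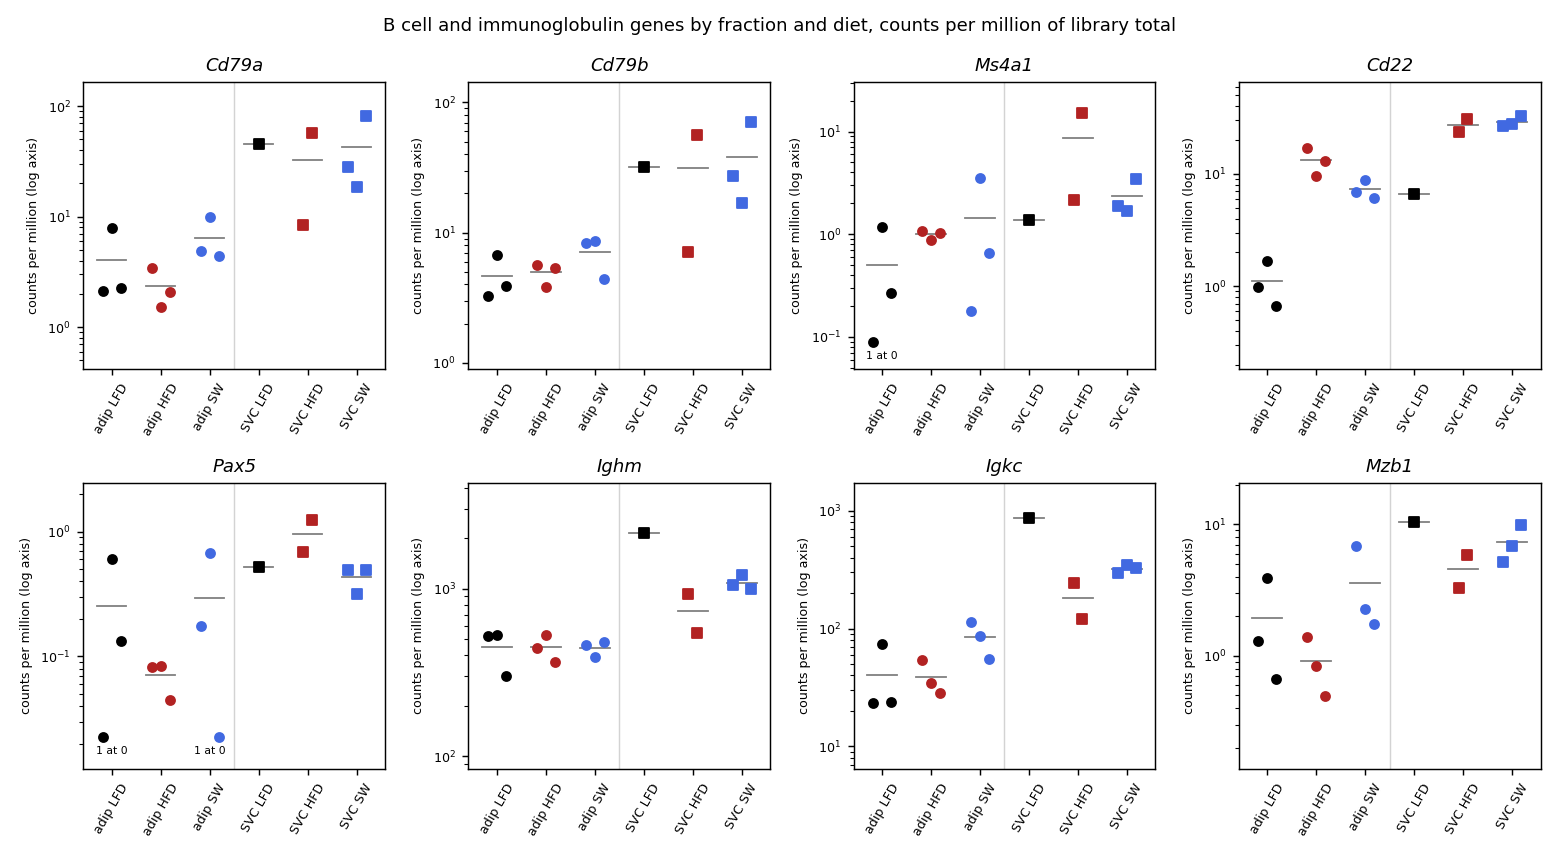
Counts per 1000000 of library total (log axis) for each of the 8 genes, with 1 point per library, circles for adipocytes and squares for SVC, LFD in black, HFD in red and SW in blue, and grey bars for group means. Points marked "at 0" had no counts and are drawn at the bottom. The 3 LFD adipocyte libraries had 5 to 33 Cd22 counts and the HFD libraries 209 to 290, while Ighm was between 2264 and 12628 counts in all 9 adipocyte libraries.

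Cd22 is a sialic acid-binding inhibitory co-receptor that dampens signalling through the B cell receptor. The adipocyte libraries held 6, 33 and 5 Cd22 counts in LFD mice, 209, 227 and 290 in HFD mice and 78, 144 and 84 in SW mice. Scaled to library size within the fraction, these were 1.10 ± 0.538 (SD, n = 3), 12.7 ± 3.12 (n = 3) and 7.62 ± 1.41 CPM (n = 3). The 3 groups did not overlap.

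Cd22 rose 10.2-fold in adipocytes of HFD mice, a log2 fold change of 3.35 ± 0.33 (SE) with an adjusted p of 3.90e-05 in edgeR's quasi-likelihood test. It was the only member of the 7 tested to pass between HFD and LFD adipocytes, where 51.5% of all genes tested passed. In SW mice Cd22 was still 6.15-fold above LFD (log2 2.62 ± 0.33, adjusted p = 0.000532), again as the only member of 7, with 17.1% of all genes tested passing. Both calls stood in every alternative run. From HFD to SW the log2 difference was -0.73 ± 0.27, with an adjusted p of 0.0589 that missed the threshold and ranged from 0.0434 to 0.0702 over the other tools, scalings and filters.

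Cd79a and Cd79b form the signalling unit of the B cell receptor, and neither passed between HFD and LFD adipocytes. Adipocyte libraries held 13, 154 and 17 Cd79a counts in LFD, 42, 36 and 46 in HFD and 55, 163 and 60 in SW mice. LFD library 405 and SW library 408 had the highest counts, and the LFD and HFD groups overlapped. The log2 difference of Cd79a between HFD and LFD was -1.005 ± 0.53 (adjusted p = 0.138). For Cd79b the counts were 20, 133 and 29 in LFD, 69, 91 and 119 in HFD and 94, 140 and 60 in SW mice, a log2 difference of -0.02 ± 0.36 between HFD and LFD (adjusted p = 0.967). Thus in each library Cd22 counts per Cd79a count were 0.214 to 0.462 in LFD, 4.98 to 6.31 in HFD and 0.883 to 1.42 in SW adipocytes, with no overlap between the diets. Such a ratio follows the balance of both genes between libraries and does not compare their levels, since gene length was not taken into account.

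Macrophage markers moved in the same libraries as Cd22. All 9 of 9 macrophage markers tested were higher in HFD than in LFD adipocytes, where 26.5% of all genes tested were. The summed level of the markers was 477 to 867 CPM in LFD, 6514 to 8284 in HFD and 4458 to 5017 in SW mice. Summed levels, here and below, are CPM of the library total and are not scaled as the single genes are. No marker was at 0 in any group. Per 10000 counts of these markers, Cd22 had 11.3 to 21.8 counts in LFD, 14.7 to 20.6 in HFD and 13.7 to 18.5 in SW adipocytes, so that on this scale the diets overlapped. The SVC libraries held 16.0 per 10000 in the LFD, 24.9 and 28.9 in the HFD and 26.3 to 33.8 in the SW libraries. The part of macrophages in the Cd22 result was not tested.

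**Figure D2:**
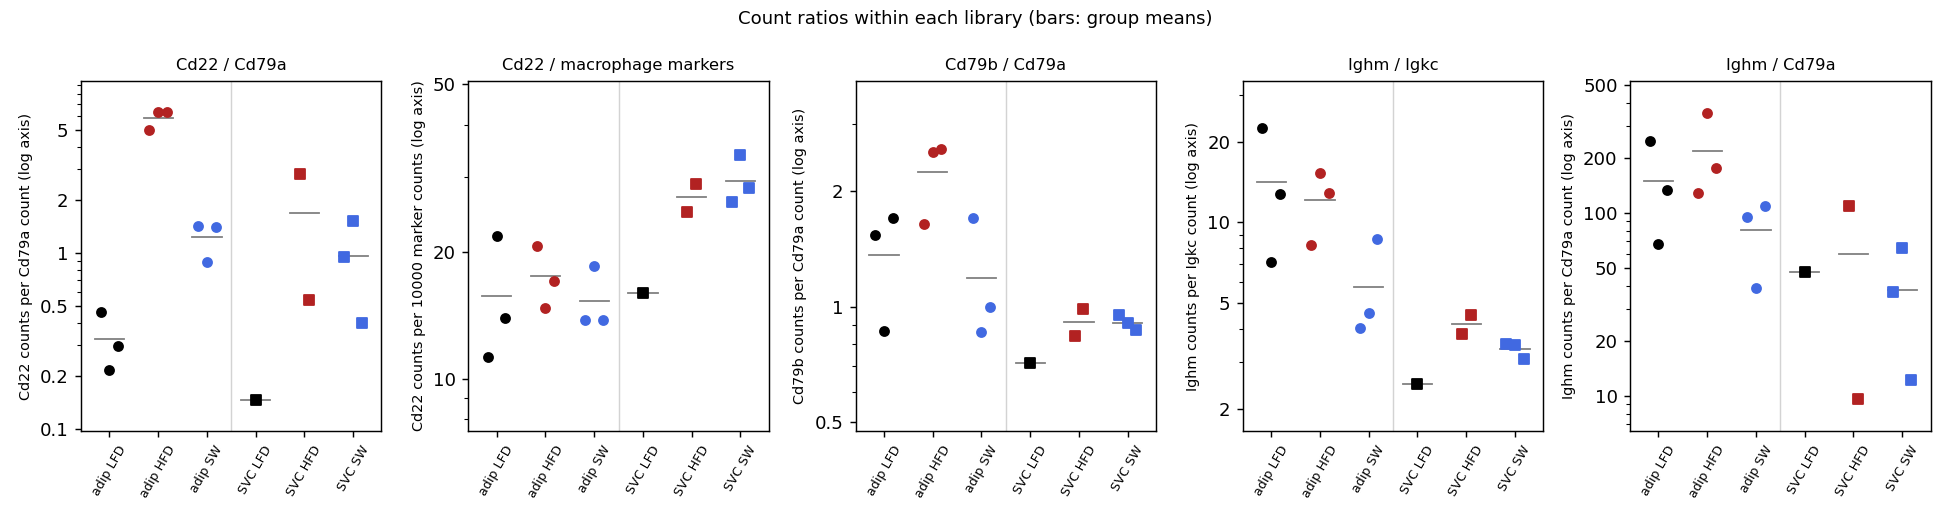
Count ratios within each library on log axes, from left to right Cd22 per Cd79a, Cd22 per 10000 summed counts of 9 macrophage markers, Cd79b per Cd79a, Ighm per Igkc and Ighm per Cd79a, with circles for adipocytes, squares for SVC and grey bars for group means. Cd22 per Cd79a separated the 3 diets in adipocytes (0.214 to 0.462, 4.98 to 6.31 and 0.883 to 1.42), whereas Cd22 per 10000 macrophage marker counts ranged from 11.3 to 21.8 across all 9 adipocyte libraries.

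Since Cd22 and Cd79a parted in adipocytes, promoter windows of both are shown side by side, from RefSeq on GRCm38.p6. Each window runs from 250 bases before to 50 after the start that RefSeq gives. Each is written in the direction of its gene. Such windows were read for 3 of the 8 members, Pax5 being the other. Those of the remaining members, Mzb1 among them, were not read, so the 3 do not show which members have a window. Capitals mark matches, on either strand, to the E-box CANNTG bound by basic helix-loop-helix factors and to CCCNNGGG, a palindrome of the kind bound by the early B cell factor EBF1.
Cd79a, chr7:24897247-24897546, plus strand: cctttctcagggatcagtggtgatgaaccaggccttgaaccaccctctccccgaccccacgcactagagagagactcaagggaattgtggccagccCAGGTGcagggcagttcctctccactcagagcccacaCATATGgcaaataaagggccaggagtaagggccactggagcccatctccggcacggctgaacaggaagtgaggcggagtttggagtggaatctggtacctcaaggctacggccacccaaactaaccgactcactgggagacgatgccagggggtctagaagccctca
Cd22, chr7:30878979-30879278, minus strand: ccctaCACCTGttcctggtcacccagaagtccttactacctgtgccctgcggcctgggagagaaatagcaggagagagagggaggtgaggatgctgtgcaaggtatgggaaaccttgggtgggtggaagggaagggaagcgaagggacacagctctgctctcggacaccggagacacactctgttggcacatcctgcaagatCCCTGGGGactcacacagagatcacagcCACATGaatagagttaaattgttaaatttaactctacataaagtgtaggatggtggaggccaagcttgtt
The Cd79a window held 2 E-boxes and no CCCNNGGG, and the Cd22 window held 2 E-boxes and 1 CCCNNGGG. The octamer ATTTGCAT of immunoglobulin promoters was in neither window. Of 32851 RefSeq promoter windows, 72.3% held CANNTG, 13.7% held CCCNNGGG and 1.74% held ATTTGCAT, so a match describes the letters and is not evidence of binding. Both genes lie on chromosome 7 and are protein coding. In GENCODE M21 Cd22 spans chr7:30865402-30880342 on the minus strand, so its window lies inside the gene and does not hold its GENCODE start. The Cd79a window holds the GENCODE start of Cd79a, at 24897381. The motif counts of Cd22 thus describe the RefSeq start alone.

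Between SW and HFD adipocytes 2 of the 7 members tested passed, where 31.4% of all genes tested passed. Cd79a was 3.03-fold higher in SW mice (log2 1.60 ± 0.52, adjusted p = 0.0415), with all 3 SW libraries above the HFD libraries in CPM. Mzb1, an endoplasmic reticulum chaperone of marginal zone B cells, B-1 cells and plasma cells that helps assemble IgM, held 8, 77 and 5 counts in LFD, 17, 20 and 11 in HFD and 77, 37 and 24 in SW mice. It was 4.61-fold higher in SW than in HFD adipocytes (log2 2.20 ± 0.74, adjusted p = 0.0447). Both calls were close to the threshold and depended on single libraries and, for Mzb1, on the tool, with a log2 difference of 1.86 and an adjusted p of 0.0665 in limma-voom. Neither passed without HFD library 401 (adjusted p of 0.0583 and 0.0723 for Cd79a and Mzb1), HFD library 402 (0.117 and 0.101), HFD library 403 (0.126 and 0.148) or SW library 407 (0.0600 and 0.184), and Cd79a did not without SW library 408 (0.144). With a library left out, the log2 differences where the call was lost were 1.17 to 1.89 for Cd79a and 1.23 to 2.53 for Mzb1. Without a filter on low counts their adjusted p-values were 0.0785 and 0.0929.

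Transcripts of other cells also changed between HFD and SW adipocytes, and 5 of 9 macrophage markers were lower, where 15.9% of all genes tested were. Of 8 T cell genes tested, Cd3d and Trbc2 were higher in SW than in HFD adipocytes (log2 2.46 ± 0.74 and 2.33 ± 0.61, adjusted p of 0.0313 and 0.0192) and none was lower, where 31.4% of all genes tested passed in either direction. In limma-voom Trbc2 alone of the T cell genes passed. The summed level of the T cell markers was 9.44 to 16.6 CPM in HFD and 11.2 to 48.7 in SW libraries, with no marker at 0 over a group. Of 5 erythroid markers 4 were higher in SW mice, where 15.6% of all genes tested were. All 5 summed to 618 to 829 CPM in HFD and 1346 to 1794 in SW libraries. Of 4 plasmacytoid dendritic cell genes tested 2 were higher, Bst2 and Il3ra. The 6 genes of that list summed to 104 to 123 and 180 to 311 CPM. The part of these cells in the B cell values was not tested.

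Ms4a1 and Pax5 had few counts in adipocytes, and Pax5 was at or under 3 counts in 7 of the 9 libraries. Ms4a1 counts were 0, 23 and 2 in LFD, 13, 21 and 23 in HFD and 2, 57 and 9 in SW mice. The groups overlapped, and the log2 difference between HFD and LFD was 0.60 ± 0.94 (adjusted p = 0.618). Pax5 counts were 0, 12 and 1 in LFD, 1, 2 and 1 in HFD and 2, 11 and 0 in SW mice, and Pax5 did not pass the filter on low counts in this fraction. LFD library 405 and SW library 408 had the highest counts of both genes in their groups, as they had for Cd79a and Cd79b.

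Ighm and Igkc, both constant regions, held most of the members' counts in adipocytes, and neither differed between lean and obese mice beyond its spread. The V, D and J segments, given apart below, took 3.49% to 4.97% of immunoglobulin counts in LFD and 9.60% to 12.2% in HFD adipocytes, without overlap. Ighm counts were 3203, 10373 and 2264 in LFD, 5409, 12628 and 8085 in HFD and 5198, 6373 and 6564 in SW mice. As levels these were 447 ± 129, 432 ± 85.7 and 466 ± 81.9 CPM (SD, n = 3 each), with all 3 groups overlapping. The log2 difference of Ighm between HFD and LFD was -0.05 ± 0.24 (adjusted p = 0.875), that between SW and HFD 0.11 ± 0.24 (adjusted p = 0.752).

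Igkc, the constant region of the kappa light chain, varied more. Its counts were 142, 1464 and 177 in LFD, 656, 822 and 625 in HFD and 1294, 1393 and 760 in SW adipocytes. All 3 SW libraries (91.4 ± 41.4 CPM) were above the HFD libraries (37.2 ± 11.0 CPM), with a log2 difference of 1.30 ± 0.48 and an adjusted p of 0.0638, which passed with only the groups compared in the fit (0.0262) and without SW library 409 (0.0469). Each Igkc count was accompanied by 7.09 to 22.6 Ighm counts in LFD, 8.25 to 15.4 in HFD and 4.02 to 8.64 in SW adipocytes, and by 2.48 to 4.52 in SVC. The adipocyte libraries thus held more Ighm per Igkc than the SVC libraries, except for SW libraries 407 and 408, whose 4.02 and 4.58 were in or next to the SVC range.

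Immunoglobulin genes of every kind, 259 in the tables, took 0.0355% to 0.0657% of the counts of LFD adipocytes, 0.0442% to 0.0652% in HFD and 0.0574% to 0.0640% in SW adipocytes. The means were 0.0527%, 0.0561% and 0.0610%, and no pair of diets passed in a two-sided exact permutation test (p of 0.6 to 0.7, the smallest possible with 3 against 3 being 0.1, and 0.7 after adjustment over 4 comparisons). In SVC the share was 0.474% in LFD, 0.146% and 0.0947% in HFD and 0.192% to 0.223% in SW SVC. The SW libraries were all above the HFD libraries in SVC, with an exact permutation p of 0.2, the smallest that 3 against 2 allows. Leaving mitochondrial and hemoglobin genes out of the totals gave 0.156% and 0.149% for HFD and 0.210% to 0.243% for SW libraries.

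In SVC, the compartment in which B cells reside, Igkc was the 1 member of 8 to pass between SW and HFD mice, where 17.5% of all genes tested passed. Igkc counts were 5000 in LFD, 3164 and 2156 in HFD and 3035, 7668 and 3290 in SW SVC, or 873, 166 ± 24.6 and 330 ± 26.4 CPM. The SW libraries were 1.99-fold above the HFD libraries without overlap (log2 0.99 ± 0.24, adjusted p = 0.0428). The call was lost without HFD library 212 (0.0601) and without SW library 412 (0.162), 413 (0.101) or 414 (0.113), and kept without HFD library 411 (log2 0.85, adjusted p = 0.0329). Markers of other cells were also read in these SVC libraries. In edgeR's test 0 of 7 adipocyte and 0 of 5 mesothelial markers passed between SW and HFD. Of 5 fibroblast and progenitor markers only Dpp4 passed, lower in SW mice. DESeq2 called 4, 0 and 3 of these lists. The summed adipocyte markers were 143 to 229 CPM in HFD and 283 to 445 CPM in SW libraries, and the mesothelial markers 33.0 to 103 and 117 to 138 CPM. Those of fibroblasts and progenitors overlapped, at 2710 to 6044 and 5204 to 6693 CPM. No marker was at 0, and the part of these cells in the Igkc result was not tested.

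Ighm followed the same order in SVC. It held 12419 counts in LFD, 12141 and 9743 in HFD and 10661, 26726 and 10148 in SW SVC, or 2169, 688 ± 22.5 and 1105 ± 6.41 CPM. The log2 difference between SW and HFD was 0.68 ± 0.25 (adjusted p = 0.0898), with no overlap, and it passed in DESeq2 (adjusted p = 0.00189). Without HFD library 411 it was 0.66 (adjusted p = 0.0759). The single LFD library had the highest level of both chains, without a replicate, and also the highest level of erythroid markers (52112 CPM against 2885 to 35977 in the other SVC libraries) and of mesothelial markers (833 CPM against 33.0 to 138). The part of these cells in the immunoglobulin level was not tested.

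The receptor genes of SVC varied more between libraries of a diet than between diets. Cd79a held 261 counts in LFD, 111 and 1009 in HFD and 288, 414 and 830 in SW SVC. HFD library 411 and SW library 414 were the highest, at 69.6 and 90.9 CPM, and HFD library 212 the lowest, at 6.44 CPM. Cd79b held 186 counts in LFD, 93 and 998 in HFD and 275, 375 and 722 in SW SVC, and thus followed Cd79a closely, with 0.713 to 0.989 Cd79b counts per Cd79a count in all 6 libraries, against 0.859 to 2.59 in adipocytes. The log2 differences between SW and HFD were 0.27 ± 1.05 for Cd79a and 0.14 ± 1.07 for Cd79b (adjusted p of 0.861 and 0.932), and both turned negative without HFD library 212 (-0.53 and -0.67) or SW library 414 (-0.70 and -0.76). Without HFD library 411 they were 2.83 and 2.92 (adjusted p of 0.0935 and 0.0816), so that the size and sign of both differences rested on single libraries.

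The balance of immunoglobulin to receptor transcripts differed widely among the SVC libraries. Ighm counts per Cd79a count were 47.6 in LFD, 109 and 9.66 in HFD and 12.2 to 64.6 in SW SVC. HFD library 411, which held more Cd79a than HFD library 212, had the lower share of immunoglobulin counts (0.0947% against 0.146%), but with mitochondrial and hemoglobin genes left out of the totals the shares were 0.149% and 0.156%. Ms4a1 held 8 counts in LFD, 28 and 269 in HFD and 19, 37 and 35 in SW SVC, which gave a log2 difference of -2.06 ± 0.96 between SW and HFD (adjusted p = 0.149) that turned to 0.57 without HFD library 411. Pax5 held 3, then 9 and 22, then 5, 7 and 5 counts in the same order.

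Mzb1 held 60 counts in LFD, 43 and 105 in HFD and 53, 151 and 101 in SW SVC, with overlapping groups (log2 0.64 ± 0.57 between SW and HFD, adjusted p = 0.416, and 1.60 with an adjusted p of 0.0773 without HFD library 411). Cd22 held 38 counts in LFD, 312 and 544 in HFD and 274, 624 and 331 in SW SVC. Its level was 6.64 CPM in the LFD library, 27.8 ± 13.7 CPM in HFD and 30.1 ± 5.48 CPM in SW libraries, so that the LFD library was the lowest of the 6. The log2 difference of Cd22 between SW and HFD was 0.11 ± 0.36 (adjusted p = 0.827), and 0.74 without HFD library 411 (adjusted p = 0.0935). The summed macrophage markers were likewise lowest in the LFD library, at 4117 CPM against 8309 to 11550 in the other SVC libraries.

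**Figure D3:**
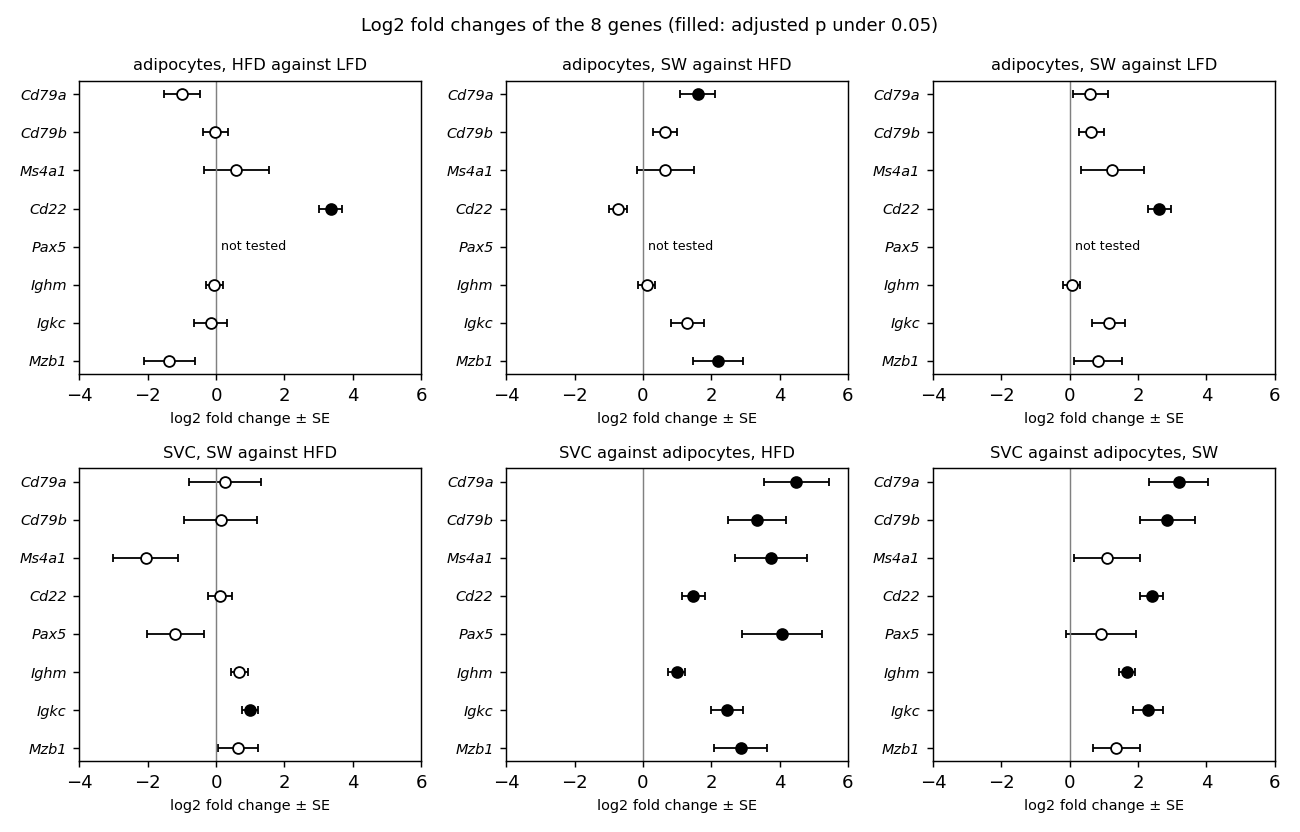
Log2 fold changes with standard errors of the 8 genes in 6 comparisons, with filled points for an adjusted p under 0.05. Between HFD and LFD adipocytes Cd22 is the only filled point, at 3.35, between SW and HFD SVC Igkc is, at 0.99, and all 8 genes are filled for SVC against adipocytes in HFD mice.

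SVC held more B cell transcripts than adipocytes. In HFD mice 8 of 8 members passed, all higher in SVC, where 29.1% of all genes tested passed in either direction, with log2 fold changes from 0.99 ± 0.26 for Ighm to 4.49 ± 0.96 for Cd79a. The 2 HFD libraries of SVC had 111 and 1009 Cd79a counts against 42, 36 and 46 in adipocytes. Without HFD library 411 only Igkc passed, and the log2 fold change of Cd79a was 1.79 (adjusted p = 0.186). The count was 5 without adipocyte HFD library 402 and 4 without library 403.

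In SW mice 5 of 8 members passed, again all higher in SVC, where 68.4% of all genes tested passed in either direction. Cd79a was 9.12-fold higher (log2 3.19 ± 0.85, adjusted p = 0.00527), Cd79b 7.25-fold (log2 2.86 ± 0.79, adjusted p = 0.00644), Cd22 5.27-fold (log2 2.40 ± 0.33, adjusted p = 2.92e-05), Igkc 4.85-fold (log2 2.28 ± 0.44, adjusted p = 0.000470) and Ighm 3.17-fold (log2 1.67 ± 0.24, adjusted p = 3.76e-05). Ms4a1, Pax5 and Mzb1 did not pass (adjusted p of 0.327, 0.438 and 0.0881). Mzb1 passed in limma-voom (log2 1.70, adjusted p = 0.0179). Ms4a1 passed without adipocyte SW library 408 and Mzb1 without adipocyte SW library 407 (adjusted p of 0.0468 and 0.0139).

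The change from HFD to SW was also compared between the fractions. By edgeR's quasi-likelihood test 0 of 8 members differed in that change at an adjusted p under 0.05, where 27.1% of all genes tested did, and none had an unadjusted p under 0.05. DESeq2 and limma-voom also called 0 members. Without SVC HFD library 411 Cd22 was called, with a log2 difference of 1.55 between the changes (SVC minus adipocytes, adjusted p = 0.0141).

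The V segments of the immunoglobulin loci, which encode the antigen-binding ends of the chains, were counted apart from the constant regions. The tables held 114 heavy chain (Ighv), 104 kappa (Igkv) and 3 lambda (Iglv) V segments. Segments took 3.49% to 4.97% of the immunoglobulin counts of LFD adipocytes, 9.60% to 12.2% in HFD, 6.20% to 11.3% in SW adipocytes and 14.1% to 33.2% in SVC. LFD adipocytes held only 7 to 53 Ighv counts per library, HFD adipocytes 267 to 410 and SW adipocytes 27 to 180, against 729 to 3608 in SVC.

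Ighv11-2 was the most counted Ighv segment and Igkv14-126 the most counted Igkv segment in 13 of the 15 libraries each. The exceptions were LFD library 405 and SW library 407 of adipocytes, and in library 407 Ighv11-2 was level with Ighv3-6, at 6 counts each. Among the 13, adipocyte LFD libraries 404 and 406 had Ighv11-2 in the lead with only 5 of 21 and 2 of 7 Ighv counts. The pair of Ighv11-2 and Igkv14-126 was chosen for display after its counts were seen. It is known from B-1a cells that make IgM against phosphatidylcholine. The last 60 bases of each GENCODE M21 transcript are shown, with capitals from the codon of the conserved cysteine to the end, which is the part of the antigen-binding CDR3 loop that the V segment itself encodes.
Ighv11-2: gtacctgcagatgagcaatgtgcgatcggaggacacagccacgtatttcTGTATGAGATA
Igkv14-126: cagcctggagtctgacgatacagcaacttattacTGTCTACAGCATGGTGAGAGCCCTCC
Ighv11-2 lies at chr12:114048241-114048812 on the minus strand and Igkv14-126 at chr6:67896172-67896642 on the plus strand of GRCm38.

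The share of Ighv counts in Ighv11-2 was 21.0% in the LFD library of SVC (95% Wilson interval 19.4% to 22.7%), 23.6% and 20.1% in the HFD libraries and 18.1% to 30.0% in the SW libraries. In HFD adipocytes it was 17.2% (13.2% to 22.2%), 42.4% (37.7% to 47.3%) and 37.3% (32.1% to 42.9%), and HFD library 401 was the lowest of these. Igkv14-126 took 24.0% of Igkv counts in LFD, 27.3% and 22.3% in HFD and 23.8% to 29.6% in SW SVC. In HFD adipocytes its share was 21.7%, 48.0% and 39.8%, with HFD library 401 again the lowest. In SW adipocytes the shares were 14.9% to 22.2% for Ighv11-2 and 13.2% to 23.8% for Igkv14-126. In LFD adipocytes they were 13.2% to 28.6% and 13.3% to 31.9%, and the Wilson limits of Ighv11-2 reached from 6.55% to 64.1% over these libraries. Intervals cover counting error only, and the estimated counts can divide reads between V segments of near-identical sequence, so the segment counts are uncertain.

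**Figure D4:**
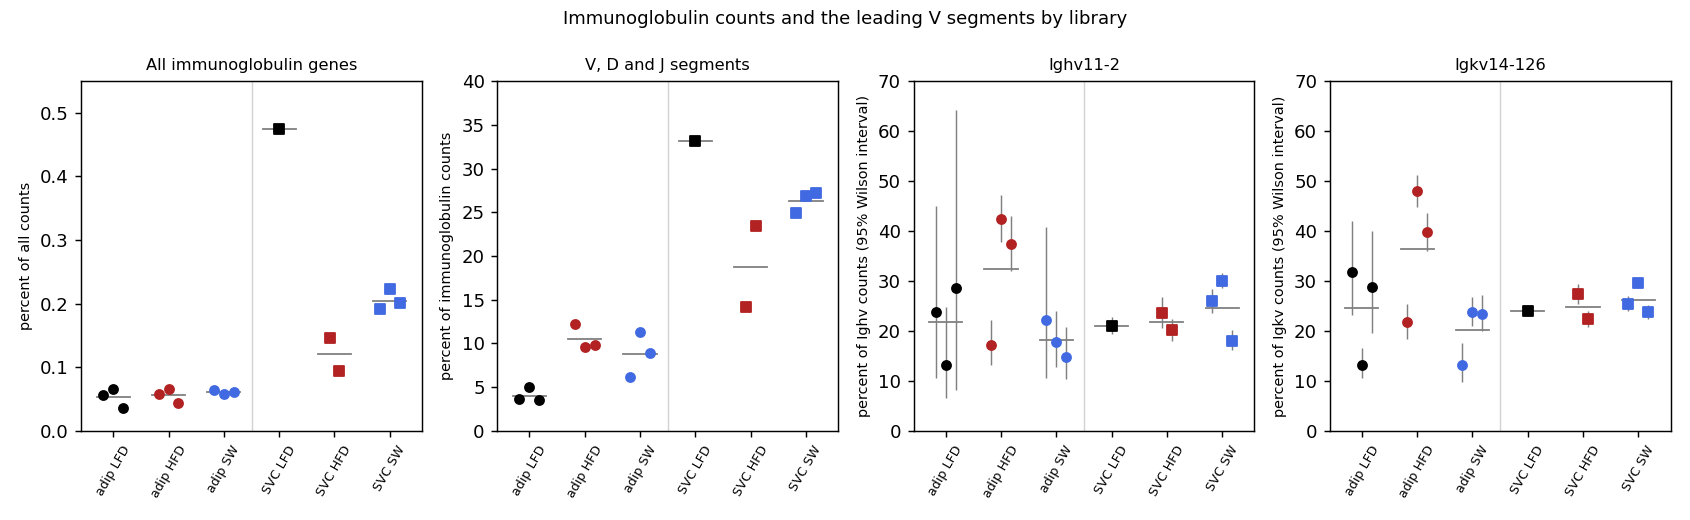
By library, from left to right, the percent of all counts in immunoglobulin genes, the percent of immunoglobulin counts in V, D and J segments, and the percent of Ighv counts in Ighv11-2 and of Igkv counts in Igkv14-126, each with a 95% Wilson interval, with circles for adipocytes, squares for SVC and grey bars for group means. The share of all counts stays between 0.0355% and 0.0657% in adipocytes and reaches 0.474% in the LFD library of SVC, and the intervals of Ighv11-2 are wide where few Ighv counts were available.

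Class-switched heavy chains were scarce. The constant genes of IgG and IgA (Ighg1, Ighg2b, Ighg2c, Ighg3 and Igha) took 0.249% to 3.44% of heavy chain constant counts in adipocytes and 4.44% to 8.86% in SVC, and the IgE gene Ighe had 0 counts in every library. Of all genes tested in adipocytes, 51.5% passed between HFD and LFD, 31.4% between SW and HFD and 17.1% between SW and LFD. Of 8 constant and joining chain genes tested there, 0 passed in edgeR's test in each of these comparisons. At an unadjusted p under 0.05 the count was 0 between HFD and LFD, 2 between SW and HFD (Igkc and Iglc2) and 2 between SW and LFD (Igkc and Ighg2c), and DESeq2 called 1 in all, Ighg2c between SW and LFD, and limma-voom 0. Igj, the joining chain of polymeric IgM and IgA, held 101, 1066 and 135 counts in LFD, 537, 645 and 405 in HFD and 695, 836 and 562 in SW adipocytes (log2 -0.11 ± 0.46 between HFD and LFD, adjusted p = 0.860). Ighd, Iglc1 and Iglc3 were not analysed here.

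Genes of other parts of the B cell program were read from lists. Between HFD and LFD adipocytes 11 of 11 B cell receptor signalling genes tested were higher, where 26.5% of all genes tested were, with a median log2 fold change of 3.08 against -0.03 for all genes. Among them were the kinases Btk (log2 3.18 ± 0.20, adjusted p = 6.26e-06) and Syk (3.04 ± 0.27, adjusted p = 2.19e-05) and the adaptor Blnk (3.71 ± 0.28, adjusted p = 1.06e-05), which myeloid cells also use. Blk, the other gene of the 12 listed, did not pass the filter on low counts in adipocytes. It had 1 to 14 counts in LFD libraries (mean 0.425 CPM) and 5 to 7 in HFD libraries (mean 0.349 CPM). From HFD to SW 7 of the 11 tested fell and none rose, where 15.9% of all genes tested fell. In SW mice 10 of 11 were above LFD, where 10.9% of all genes tested were.

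Of 12 receptor and co-receptor genes tested, 6 were higher in HFD than in LFD adipocytes and Cd81 was lower (log2 -0.39 ± 0.12, adjusted p = 0.0215), 7 in all, a share close to the 51.5% of all genes tested that passed. The 6 were Cd22, Cd72, Cd37, Fcrl1, Cd180 and the inhibitory IgG receptor Fcgr2b. Cd180, a relative of the Toll-like receptors found on B cells and macrophages, had the largest change (log2 4.98 ± 0.31, adjusted p = 6.26e-06), and Cd72, an inhibitory co-receptor like Cd22, had a log2 fold change of 2.24 ± 0.29 (adjusted p = 0.000187).

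Of 10 transcription factors tested, Pou2f2, Irf4 and Irf8 were higher in HFD than in LFD adipocytes (log2 2.94 ± 0.58, 0.96 ± 0.24 and 1.92 ± 0.22, adjusted p of 0.00225, 0.00796 and 9.99e-05). Ebf1, which also acts in adipocyte development, was lower (log2 -0.88 ± 0.13, adjusted p = 0.000462) and was higher in adipocytes than in SVC in both HFD and SW mice. These 4 of 10 were a smaller share than the 51.5% of all genes. Among 9 B cell survival factors and receptors, Tnfsf13, the cytokine APRIL, its receptor Tnfrsf13b, Cd40 and Il7r were higher in HFD than in LFD adipocytes, so that 4 of 9 passed against 51.5% of all genes, and Il7r had the largest change (log2 4.93 ± 0.32, adjusted p = 6.26e-06).

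Sdc1 and Txndc5 of 9 plasma cell genes tested were higher in HFD than in LFD adipocytes (log2 1.05 ± 0.12 and 0.47 ± 0.12, adjusted p of 0.000108 and 0.00817), and both fell from HFD to SW while Mzb1 rose. This was a smaller share than the 26.5% of all genes tested that were higher. Of 7 B-1 and innate-like genes tested, Spn, Plscr1, Bhlhe41 and Cd9 were higher and Ahnak was lower in HFD than in LFD adipocytes, 5 of 7 against 51.5% of all genes. None of the 7 surrogate light chain and recombination genes, which mark B cell precursors, passed the filter on low counts in adipocytes, and their summed level was at most 1.07 CPM there and 2.69 CPM in SVC.

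Within SVC, 17.5% of all genes tested passed between SW and HFD mice in edgeR's test. Of the lists, 0 of 14 receptor and co-receptor genes and 0 of 9 plasma cell genes passed. At an unadjusted p under 0.05 there were 3 in each list, and DESeq2 called 2 in each (Cr2 and Cd81, and Derl3 and Txndc5) and limma-voom 0. Bach2 and Prdm1, repressors with opposing roles in plasma cell development, were both lower in SW mice (log2 -1.58 ± 0.41 and -2.39 ± 0.55, adjusted p of 0.0468 and 0.0415), as were Btk, Ptprc and Prkcb of 12 receptor signalling genes, where 11.7% of all genes tested were lower. In limma-voom only Bach2 and Ptprc of these 5 passed. These members of the lists were tested with HFD library 411 included, and without SW library 412 or 413 no gene of the whole table passed in this comparison.

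Over all 15 libraries, the genes outside these lists whose log2 CPM ran closest to the mean standardised level of the 8 members were H2-Ob (Pearson r = 0.983), Runx3 (0.971), H2-Oa (0.968), Sit1 (0.966), Haao (0.965), Traf1 (0.963), H2-DMb2 (0.961) and Pglyrp2 (0.961). H2-Ob, H2-Oa and H2-DMb2 encode subunits of accessory proteins of the MHC class II pathway in B cells and other antigen-presenting cells, H2-DM, which catalyses peptide loading, and H2-O, which restrains H2-DM. These correlations are descriptions, since the 15 points share 2 fractions that differ in the level of nearly all members.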

How the data were processed

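According to the study's methods, the authors aligned reads by Bowtie2 and quantified genes by RSEM. What they deposited is RSEM's estimated count, rounded and without normalization. The submitters' notes also name limma and the mm9 build. Records are labelled paired-end or single, and the mix differs between groups. Those of SW adipocytes are all paired-end, while the other groups hold both kinds. In SVC, HFD replicates 1 and 3 have single-end records alone, and every SW replicate has both. Versions, annotation and whether a library's runs were added up are not given in the sources used here. GENCODE M21 (GRCm38, primary assembly annotation) holds 37693 of the identifiers and lacks 1324. Another 3 columns, whose names match no group's labels, were not used.

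Columns were assigned to groups by fraction and diet, and replicates of a group were compared first, where no pair differed by as little as counting noise. Whether columns of a group come from separate mice is not shown by their names, so p-values measure the spread between these libraries. Counts were analysed in R 4.3.3 with edgeR 4.0.16: filterByExpr (minimum count 10), TMM factors and the robust quasi-likelihood test with all diets of a fraction in 1 fit, or both fractions for comparisons between them, and Benjamini-Hochberg adjustment over all genes tested at 0.05. SVC of LFD mice were not tested. CPM of single genes are scaled within a fraction. Summed levels of lists, the plot of CPM by library and the CPM of 3 counts use the library total without scaling factors. The correlations over all 15 libraries use CPM scaled over both fractions. The design was tried on simulated counts for some of the comparisons, with a fixed spread and large changes planted in well-counted genes. The simulation does not show how the test performs on genes with as few counts as Pax5 or Ms4a1 in adipocytes. Alternatives were RLE and upper-quartile factors, immunoglobulin genes left out of library sizes, other filters on low counts, DESeq2 1.42.0, limma-voom (limma 3.58.1), leaving out each library in turn and fits without the groups that a comparison does not use. Leaving mitochondrial and hemoglobin genes out of library sizes was added after seeing the data. Promoters came from RefSeq. Python 3.11.15, pandas 2.3.3, numpy 2.4.6, scipy 1.17.1 and matplotlib 3.10.9 were used for tables, exact permutation tests and plots.

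The members and lists were chosen with earlier results of these data known. Named genes are the 8 members in every library, the immunoglobulin constant genes, up to 4 genes per list by adjusted p, and the 8 genes outside the lists closest to the members with a mean of at least 1 CPM. Other list genes were named after their values were seen. A gene counted among the lists is not reported here by name. Jchain is listed as Igj and Adgre1 as Emr1.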

Additional observations from a re-analysis of the deposited data

How the results depend on the processing

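No paired analysis was possible because the columns carry no replicate numbers of the labels. Cd22 against LFD passed in HFD and in SW adipocytes under all alternatives run. Few counts limit Pax5, Ms4a1 and the V segments of LFD adipocytes, and SVC of LFD mice is 1 library. Between SW and HFD adipocytes 2 members passed, against 1 with no filter on low counts, 4 with only the groups compared and 0 to 3 with a library left out. Between SW and LFD adipocytes 1 to 2 passed with a library left out. In SVC, SW against HFD gave 1, against 2 in DESeq2 and 0 to 1 with a library left out. SVC against HFD adipocytes gave 8, against 5 with only the groups compared and 1 to 8 with a library left out, and the difference between the changes gave 0 to 1. Over all genes, SW against HFD in SVC called 2849 genes, 5222 in DESeq2, 1557 in limma-voom and 0 to 6213 with a library left out. SVC against HFD adipocytes called 5078, and 2030 with only the groups compared.

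Other members turned in sign without passing in either direction. Between HFD and LFD adipocytes Cd79b was at 0.029 without the filter and 0.0088 in DESeq2, and Ighm at 0.00061 without the filter. The difference between the changes was 0.31 for Cd79b in limma-voom. With a library left out, log2 values between HFD and LFD adipocytes ran from -1.30 to 0.027 for Cd79a, -0.21 to 0.44 for Cd79b, -0.27 to 0.10 for Ighm and -0.44 to 0.69 for Igkc. Between SW and LFD they ran from -0.45 to 3.32 for Ms4a1, -0.16 to 0.21 for Ighm and -0.14 to 2.03 for Mzb1, and between SW and HFD from -1.09 to 1.10 for Ms4a1 and -0.018 to 0.25 for Ighm. In SVC they ran from -0.25 to 0.74 for Cd22, -0.70 to 2.83 for Cd79a, -0.76 to 2.92 for Cd79b and -2.87 to 0.57 for Ms4a1. The difference between the changes ran from -2.31 to 1.28 for Cd79a, -1.43 to 2.34 for Cd79b, -3.57 to 0.022 for Ms4a1 and -0.46 to 0.13 for Igkc. The immunoglobulin share of HFD minus LFD adipocytes was -0.00039 percentage points with constant genes alone and -0.0052 to 0.0098 with a library left out. It was -0.0011 to 0.0094 for SW minus HFD and -0.00037 to 0.015 for SW minus LFD. The causes were not tested, beyond fewer libraries in a fit.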
